A study of Mus musculus with 9 samples.

Results

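The stress-inducible cytosolic chaperones and their constitutive relatives are described here in mouse gastrocnemius, the large calf muscle, taken after exercise. The genes are 10 of the 23284 in the deposited count table: the Hsp70 genes Hspa1a, Hspa1b and Hspa8, the Hsp40 co-chaperones Dnajb1 and Dnajb4, the exchange factors Hsph1 and Bag3, the Hsp90 genes Hsp90aa1 and Hsp90ab1, and the small heat shock protein gene Hspb1. They were picked by symbol, with their values in this comparison already known, so their differences between the groups are given as a description and were not tested. RNA was sequenced in 4 knockout and 5 control libraries from mice 3 months old. The knockout genotype is written Grpc6afl/fl;Mck-Cre in the labels, a loxP-flanked Gprc6a gene with Cre recombinase under the muscle creatine kinase promoter, which is active in skeletal muscle and heart. The control genotype is written Grpc6afl/fl, the same floxed gene without Cre. Both groups share the 129/C57/BL6 background, the floxed allele and the exercise. Mice with Cre alone and resting muscle were not analysed here, so an effect of Cre and that of the deletion cannot be told apart, and no response to exercise was measured.

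Chaperones of the Hsp70 and Hsp90 families bind unfolded or unstable proteins and release them in cycles of ATP use. Hsp40 proteins hand substrates to Hsp70 and speed its ATP hydrolysis, and exchange factors let the nucleotide go. Heat, contraction and other protein-damaging stress release the transcription factor Hsf1, which binds inverted repeats of the bases GAA in front of its targets. In each family a strongly inducible gene stands beside a constitutive relative: Hspa1a and Hspa1b beside Hspa8, and Hsp90aa1 beside Hsp90ab1.

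The sequence in front of 5 of these genes is shown with any exact match to 2 neighbouring units of the Hsf1 repeat. It also shows how alike the Hspa1 copies are. RefSeq (GRCm38.p6) entries were found for 7 of the 10 genes. The 250 bases before the annotated start lie at chr17:34972157-34972406, minus strand, for Hspa1a, chr17:34959239-34959488, minus strand, for Hspa1b, chr5:149636337-149636586, minus strand, for Hsph1, chr5:135887669-135887918, plus strand, for Hspb1 and chr8:83607925-83608174, plus strand, for Dnajb1. Capitals mark every match to GAANNTTC or TTCNNGAA, each of which reads the same on both strands, and overlapping matches were allowed.
Hspa1a: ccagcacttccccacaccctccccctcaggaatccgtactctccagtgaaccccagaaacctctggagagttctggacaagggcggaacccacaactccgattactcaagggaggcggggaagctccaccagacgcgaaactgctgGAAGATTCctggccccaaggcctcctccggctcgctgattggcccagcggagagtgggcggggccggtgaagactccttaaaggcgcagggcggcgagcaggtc
Hspa1b: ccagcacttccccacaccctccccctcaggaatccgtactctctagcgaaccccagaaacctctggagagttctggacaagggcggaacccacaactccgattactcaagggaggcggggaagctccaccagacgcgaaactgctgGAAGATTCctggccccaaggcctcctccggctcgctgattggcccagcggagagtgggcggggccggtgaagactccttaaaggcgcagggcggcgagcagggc
Hsph1: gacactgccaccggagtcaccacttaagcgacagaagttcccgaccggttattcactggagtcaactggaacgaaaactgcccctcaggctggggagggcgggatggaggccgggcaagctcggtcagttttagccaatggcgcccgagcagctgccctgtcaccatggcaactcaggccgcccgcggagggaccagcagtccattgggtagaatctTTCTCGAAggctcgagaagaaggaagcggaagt
Hspb1: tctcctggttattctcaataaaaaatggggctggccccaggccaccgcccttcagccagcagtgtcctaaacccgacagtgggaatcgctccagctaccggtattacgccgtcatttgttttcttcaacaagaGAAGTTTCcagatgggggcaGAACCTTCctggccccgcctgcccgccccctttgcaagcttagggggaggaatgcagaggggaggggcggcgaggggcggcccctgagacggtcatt
Dnajb1: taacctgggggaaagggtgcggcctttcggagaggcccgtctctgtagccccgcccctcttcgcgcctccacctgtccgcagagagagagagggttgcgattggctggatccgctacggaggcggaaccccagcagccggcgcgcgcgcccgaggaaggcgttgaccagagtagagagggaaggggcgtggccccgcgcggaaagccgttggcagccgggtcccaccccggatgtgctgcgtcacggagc
The Hspa1a and Hspa1b stretches were identical at 247 of 250 positions. Counted from 1 at the 5′ end, they differed by C44T, T47C and T249G, with the Hspa1a base first. Both held GAANNTTC with its first base at position -104, where -1 is the base next to the start. Hsph1 held TTCNNGAA at -33, and Hspb1 held GAANNTTC at -117 and -97. No match lay in the Dnajb1 window or in that of Bag3, and Dnajb4 had one only before its second annotated start. At least 1 such match was found for 5 of the 7 genes, counting any annotated start of a gene. By entry it was 6 of 10, against 12.8% of all 32851 promoter entries cut to the same window. Those 6 include both near-identical Hspa1 windows and 2 overlapping Hsph1 windows. Longer forms with 3 alternating units (GAA, TTC and GAA, or TTC, GAA and TTC, with any 2 bases between neighbours, searched on both strands) were found before none of the 7 genes and in 0.466% of all entries. These are letter matches in a short window, not measured binding. Imperfect repeats were not searched, so a window without a match may still hold one.

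The libraries held 19522947 to 25608659 counts each, and each of the 10 genes had at least 401 counts in every library, so counting error was 4.99% or less. Gprc6a itself had 0 counts in all 9 libraries, which allows at most 0.154 CPM (counts scaled to 1000000 per library), and therefore does not check the genotypes. Knockout samples carry Gprc5a in their titles but Gprc6a in their genotype and description. Gprc5a had 181, 176, 172 and 67 counts in knockouts, against 246, 118, 153, 159 and 229 counts in controls, and the groups overlapped. Markers of skeletal muscle fibres, such as Acta1 and Ckm, were present with all 8 of 8 genes and summed to 184495 to 247493 CPM in knockouts and 175189 to 238395 CPM in controls. Control 5 and knockouts 3 and 4 had less signal in long transcripts: the slope of the log2 level against log2 transcript length was -0.16, -0.17 and -0.08 in these, and between -0.01 and 0.20 in the others. In whole muscle, fewer cells of a type and less RNA per cell cannot be told apart. The labels do not say that each library is a separate animal.

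Transcripts of the inducible Hsp70 genes were lower in knockouts, at 0.35 of the control mean for Hspa1a and 0.328 for Hspa1b. Both encode the major heat-induced Hsp70. Hspa1a stood at 38.9, 39.2, 33.3 and 91.0 CPM in knockouts 1 to 4, against 81.2, 79.6, 141.2, 243.0 and 178.5 CPM in controls 1 to 5. Knockout 4 lay above controls 1 and 2, so the groups overlapped, while the other knockouts lay below every control. The log2 fold change, knockout minus control, was -1.52 (SE 0.40). For Hspa1b the levels were 38.0, 36.9, 26.6 and 75.3 CPM in knockouts, against 81.8, 81.5, 125.1, 230.2 and 155.2 CPM in controls. All its knockouts lay below all controls, by a narrow margin for knockout 4, and the log2 fold change was -1.61 (SE 0.37). Of the 50-base words of these transcripts, 66.3% for Hspa1a and 62.3% for Hspa1b also occur in other genes of the GENCODE M21 annotation, mostly in each other, so reads may be split between them or lost. Hspa1a also overlaps Gm20481 on the opposite strand, whose reads cannot be told apart where counting ignores strand. Their summed level was 77.0, 76.1, 59.9 and 166.4 CPM in knockouts, against 162.9, 161.1, 266.4, 473.3 and 333.8 CPM in controls, where knockout 4 passed controls 1 and 2. That sum had a log2 fold change of -1.56 (SE 0.39), which was -1.98 without knockout 4 and -1.04 without controls 4 and 5.

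Hspa8, the constitutive Hsp70 that also uncoats clathrin vesicles, averaged 129.9 ± 10.2 CPM in knockouts and 141.5 ± 5.91 CPM in controls (SD, n = 4 and 5). Knockouts 1, 2 and 4, at 131.7, 117.2 and 128.7 CPM, lay below every control, the lowest of which was at 135.8 CPM. Knockout 3, at 142.0 CPM, lay within the control range. The log2 fold change of Hspa8 was -0.12 (SE 0.08), or -0.08 without knockout 2. Its coefficient of variation among controls was 4.17%, against 47.8% for Hspa1a. The count ratio of Hspa1a and Hspa1b together to Hspa8, which does not depend on library scaling, was 0.585, 0.649, 0.422 and 1.29 in knockouts and 1.10, 1.16, 1.94, 3.49 and 2.25 in controls. Here too knockout 4 reached into the control range. For Hspa8, 74.8% of the 50-base words occur in other genes, mainly in Gm15459, so its level may be undercounted.

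**Figure D1:**
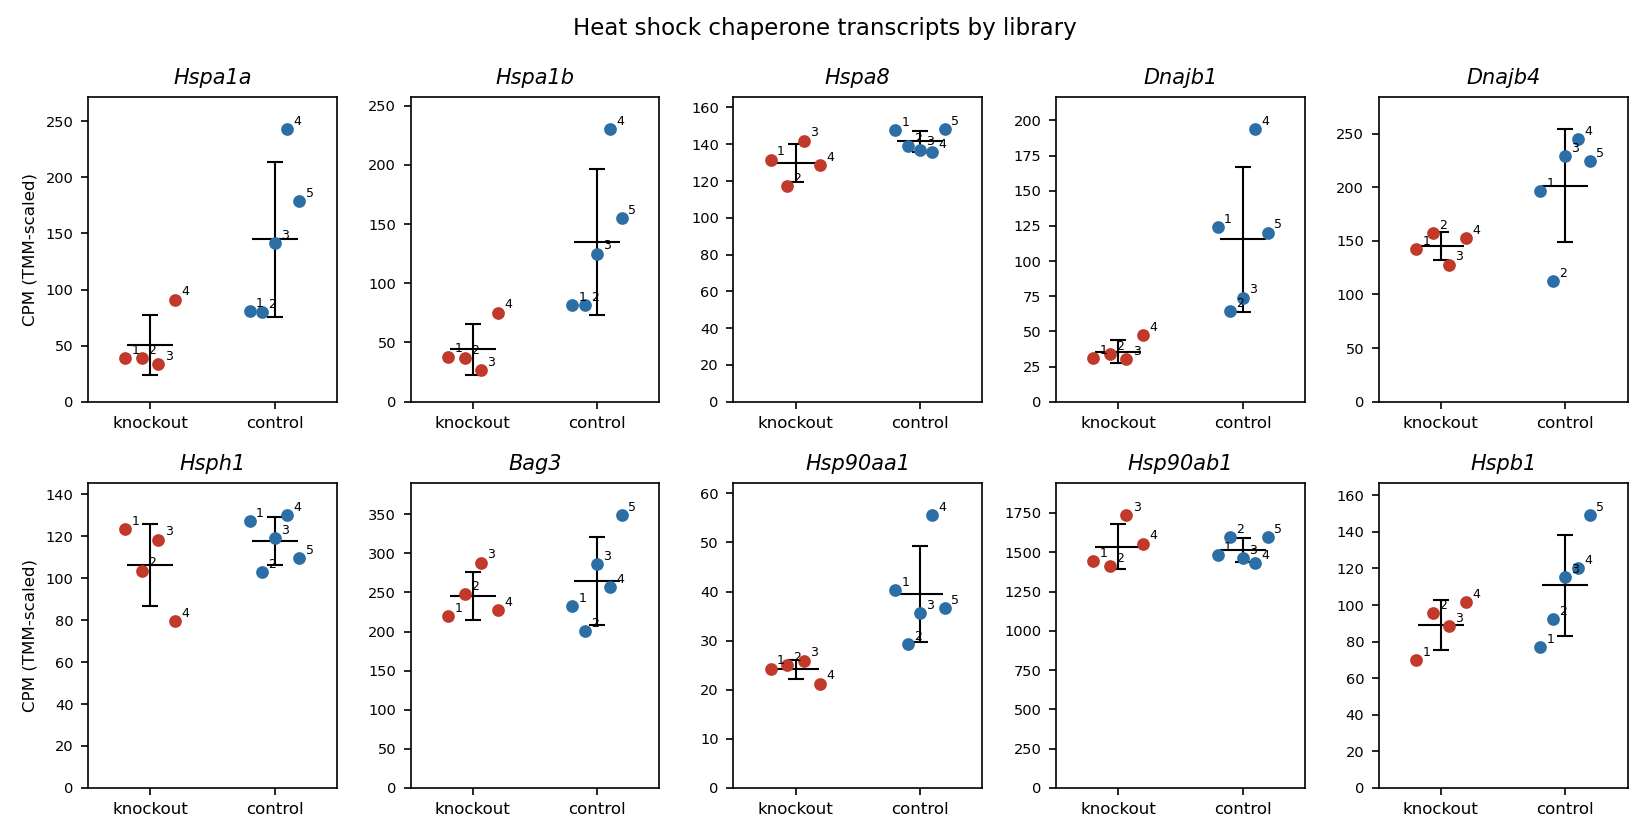
Expression of the 10 chaperone genes in CPM after TMM scaling (vertical axes start at 0), in 4 knockout (red) and 5 control (blue) libraries. Points are libraries with their numbers, and bars are mean and SD. Dnajb1, Hspa1b and Hsp90aa1 have every knockout below every control. Hsp90ab1 lies at like levels in both groups, and Hspa8 differs little in mean, though only knockout 3 reaches the control range.

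Dnajb1, the main inducible Hsp40 partner of Hsp70, had a knockout mean 0.309 of the control mean. It was at 30.9, 33.6, 30.4 and 47.6 CPM in knockouts, against 124.4, 64.4, 73.9, 193.7 and 120.3 CPM in controls. No knockout reached the lowest control, number 2. The controls spread 3.01-fold between the lowest and the highest, while the knockouts spread 1.56-fold. The log2 fold change was -1.70 (SE 0.30), and it was -1.43 without control 4 and -1.29 without controls 4 and 5.

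Dnajb4, a related Hsp40 that is abundant in muscle and heart, was at 142.6, 157.5, 127.9 and 152.8 CPM in knockouts, against 196.1, 112.6, 228.9, 245.0 and 224.8 CPM in controls. The knockouts lay below 4 of the 5 controls and above control 2. Its log2 fold change was -0.47 (SE 0.19), which was -0.62 without control 2 and -0.29 without controls 4 and 5. The count ratio of Dnajb1 to Dnajb4 was 0.217, 0.213, 0.238 and 0.311 in knockouts, all below the controls at 0.634, 0.572, 0.323, 0.791 and 0.535. The margin was small between knockout 4 and control 3.

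Hsp90aa1, the inducible cytosolic Hsp90, was lower in every knockout than in any control, at 24.3, 25.0, 25.9 and 21.3 CPM in knockouts, against 40.3, 29.3, 35.7, 55.5 and 36.6 CPM in controls. The log2 fold change was -0.71 (SE 0.16), and -0.53 without controls 4 and 5. Hsp90ab1, the constitutive Hsp90 that keeps kinases and steroid receptors in an activatable state, averaged 1536 ± 145.7 CPM in knockouts and 1514 ± 77.1 CPM in controls, a log2 fold change of 0.02 (SE 0.09). Leaving out knockout 3 alone turned that sign, to -0.04. Hsp90aa1 had 1.68%, 1.77%, 1.496% and 1.37% as many counts as Hsp90ab1 in knockouts, and 2.72%, 1.84%, 2.44%, 3.87% and 2.29% in controls. The groups of this ratio did not overlap, with knockout 2 and control 2 closest. For Hsp90aa1, 58.5% of the 50-base words occur in other genes, mainly in Gm12346, against 4.49% for Hsp90ab1, so their ratio may understate Hsp90aa1.

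**Figure D2:**
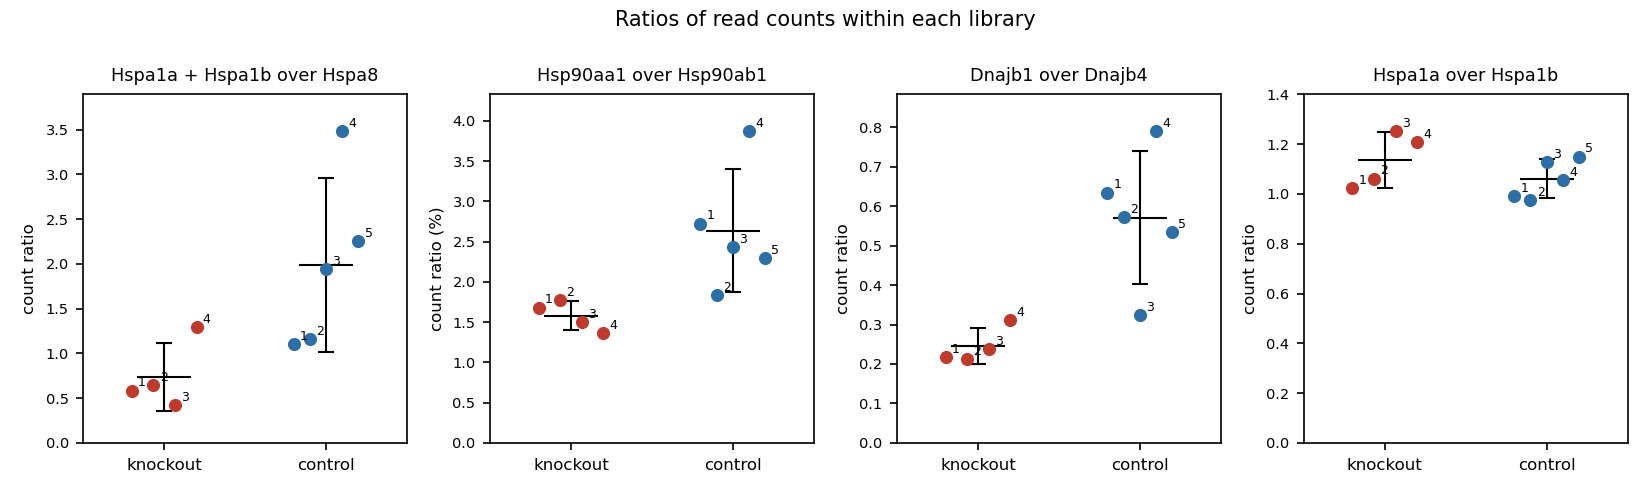
Count ratios within each library (vertical axes start at 0) for 4 knockout (red) and 5 control (blue) libraries, with mean and SD. The ratio of Hsp90aa1 to Hsp90ab1 is 1.37% to 1.77% in knockouts and 1.84% to 3.87% in controls, and Hspa1a over Hspa1b stays between 0.976 and 1.25 in all 9 libraries.

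The exchange factors and the small heat shock protein gene differed less. Hsph1, the Hsp110 exchange factor that also joins Hsp70 in pulling apart aggregates, was at 123.4, 103.6, 118.4 and 79.7 CPM in knockouts and between 103.1 and 129.9 CPM in controls. Only knockout 4 lay below the control range, and the log2 fold change of -0.15 (SE 0.13) became -0.03 without it and -0.23 without knockout 1. Bag3, which couples Hsp70 to autophagy of damaged sarcomere proteins, averaged 245.8 ± 30.8 CPM in knockouts and 264.9 ± 56.4 CPM in controls, a log2 fold change of -0.11 (SE 0.15). It was -0.19 without knockout 3 and likewise without control 2. The sign turned without control 5, to 0.02, and without controls 4 and 5, to 0.05. Hspb1, the mouse Hsp25 that protects actin filaments, was at 70.0, 95.5, 88.5 and 101.6 CPM in knockouts, against 77.0, 92.5, 115.4, 120.1 and 149.0 CPM in controls. The groups overlapped, and the log2 fold change of -0.32 (SE 0.18) was -0.18 without control 5 and -0.08 without controls 4 and 5. A pseudogene, Hsp25-ps1, holds 51.6% of the 50-base words of Hspb1.

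Counted together, 9 of the 10 genes had a log2 fold change below 0, with a median of -0.40, while 50.6% of the 13198 tested genes were below 0 and their median was 0.00. The count and median of the 10 hold Hspa1a and Hspa1b as separate genes, though they share reads. The groups did not overlap, with knockouts lower, in 3 of the 10 genes (Dnajb1, Hspa1b and Hsp90aa1), where the share over all tested genes was 0.371%. Hspa1b shares reads with its near-identical copy Hspa1a, and their summed level did overlap between the groups. By edgeR's quasi-likelihood test with Benjamini-Hochberg adjustment, 0 of the 10 genes and 0% of all tested genes passed a threshold of 0.05. At an unadjusted p under 0.05, edgeR gave 419 genes, or 3.17%. With DESeq2, 2 of the 10, Dnajb1 and Hspa1b, were among 7 genes called lower, 0.0531% of those tested. Hspa1a, the near-identical copy, was not called, at a DESeq2 log2 fold change of -1.51 (SE 0.46) against -1.61 (SE 0.34) for Hspa1b. Without a filter on low counts DESeq2 called 6 genes, of which Dnajb1 was 1 and Hspa1b was not. With limma-voom 0% of genes passed. Since the genes were chosen on this same contrast, nothing is read from these shares.

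**Figure D3:**
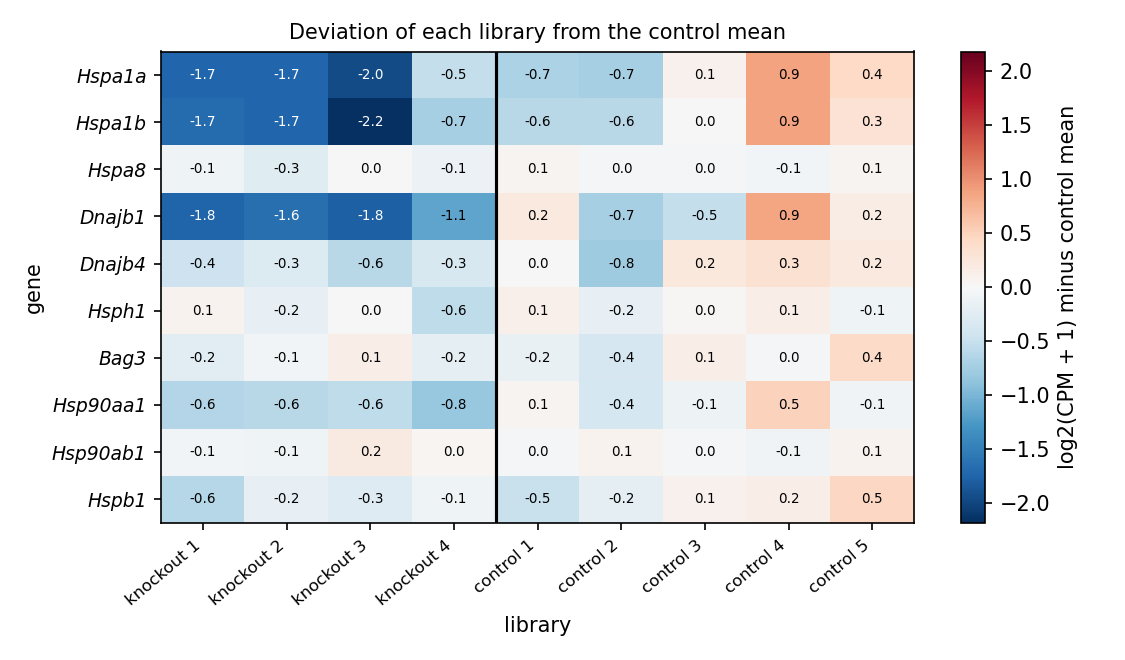
Deviation of log2(CPM + 1) in each of the 4 knockout (left) and 5 control (right) libraries from the mean of the controls, for the 10 genes. Blue is below and red above that mean. Hspa1a, Hspa1b and Dnajb1 are below it in all 4 knockouts and also in control 2, and Hspa8 and Hsp90ab1 stay near 0 throughout.

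Per kilobase of the longest coding transcript in GENCODE M21, Hsp90ab1 was the most abundant of the 10, at 609.6 ± 57.8 CPM per kilobase in knockouts and 600.8 ± 30.6 in controls. Next came Bag3, at 95.95 ± 12.01 in knockouts and 103.4 ± 22.03 in controls, and Hspb1, at 95.6 ± 14.7 in knockouts and 119.1 ± 29.6 in controls. These did not differ from each other beyond their spread in either group. Dnajb4, at 58.9 ± 5.30 in knockouts and 81.8 ± 21.4 in controls, and Hspa8, at 54.3 ± 4.25 in knockouts and 59.1 ± 2.47 in controls, did not differ beyond their spread in knockouts. Among the lower genes the order of the means differed between the groups. Hsph1, at 27.96 ± 5.16 CPM per kilobase in knockouts and 31.0 ± 2.99 in controls, had a mean above those of Hspa1a, Hspa1b and Dnajb1 in knockouts and below them in controls. In controls these gaps were within the spread, and in knockout 4 Hspa1a and Hspa1b were above Hsph1. Hspa1a was at 17.1 ± 9.13 in knockouts and 48.8 ± 23.3 in controls, Hspa1b at 15.8 ± 7.63 in knockouts and 48.1 ± 22.04 in controls, and Dnajb1 at 11.9 ± 2.70 in knockouts and 38.5 ± 17.1 in controls. Neighbours among these 3 did not differ beyond their spread in either group. Hsp90aa1 was lowest in both, at 7.35 ± 0.617 in knockouts and 12.04 ± 2.98 in controls. Levels of Hspa8, Hsp90aa1, Hspb1 and the Hspa1 genes carry the uncertainty of their shared sequence.

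Within the groups, Dnajb1 varied from library to library with some of the other genes and not with others. After subtracting each group's mean of log2(CPM + 1), Pearson's r over the 9 libraries was 0.70 between Hspa1a and Dnajb1, 0.72 between Hspa1b and Dnajb1, and 0.72 between Dnajb1 and Hsp90aa1. Dnajb4 had 0.65 with Dnajb1, while Hspa1a and Hsp90aa1 had 0.33. Dnajb1 had 0.31 with Hspb1, 0.16 with Bag3 and 0.02 with Hsph1. Hspb1 had 0.73 with Hspa1a, 0.65 with Hspa1b and 0.10 with Hsp90aa1. Hsph1 had 0.63 with Hsp90aa1, but -0.36 with Hspa1a and -0.35 with Hspa1b. Hspa8 and Hsp90ab1, the constitutive genes, had 0.74 with each other and -0.03 and -0.26 with Dnajb1. Hspb1 and Bag3 had 0.71. Over all 45 pairs the median was 0.23, with a range from -0.48 (Dnajb4 and Hsp90ab1) to 0.99 (Hspa1a and Hspa1b, which share reads). These r values describe few points that also share differences in depth and composition. Among controls, number 2 was below the control median in 8 of the 10 genes and number 5 in 1. The knockouts were below that median in 9, 10, 7 and 9 genes.

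The ratio of Hspa1a to Hspa1b was 1.02, 1.06, 1.25 and 1.21 in knockouts and 0.993, 0.976, 1.13, 1.06 and 1.15 in controls. The 3 libraries with less signal in long transcripts, control 5 and knockouts 3 and 4, had the highest values. Without these libraries the log2 fold changes of Dnajb1, Hspa1a, Hspa1b and Hsp90aa1 were -1.82, -1.80, -1.79 and -0.70, as large or nearly as large as with them.

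The rest of the chaperone network was counted from lists of 65 other genes in 9 groups, all of which passed the filter on low counts. In edgeR 0 of the 65 were higher and 0 lower (0% of all genes), 0 passed at an unadjusted p under 0.05 (3.17% of all genes), and in DESeq2 and limma-voom 0 passed after adjustment. Their median log2 fold change was 0.02, with 28 of 65 below 0. The groups overlapped in all 65, where 0.371% of all tested genes lay wholly lower in knockouts and 0.439% wholly higher. The miss of the threshold does not show that these genes were equal.

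**Figure D4:**
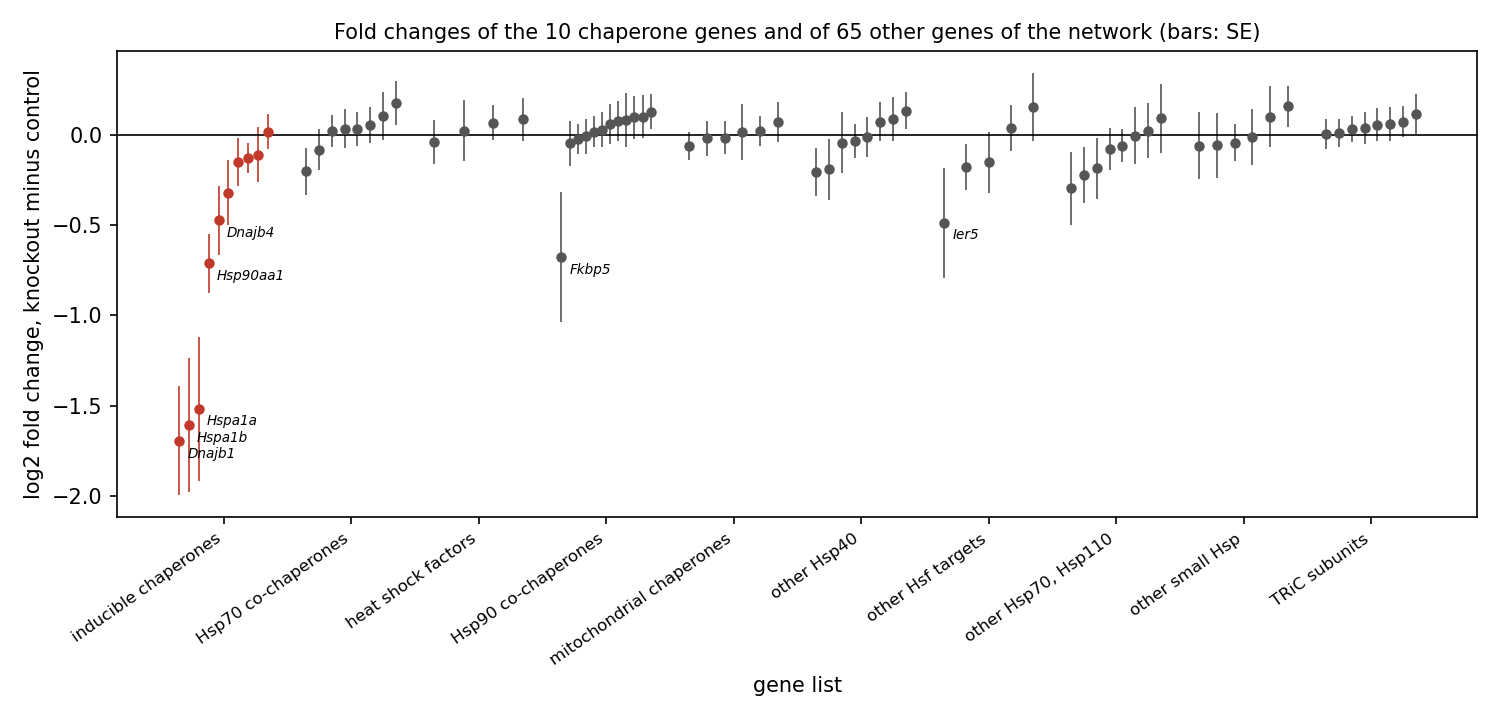
Log2 fold changes, knockout minus control, with SE, for the 10 chaperone genes (red) and 65 other chaperone network genes in 9 lists (grey). Dnajb1, Hspa1a and Hspa1b lie between -1.70 and -1.52, and the lowest of the other genes are Fkbp5 at -0.68 and Ier5 at -0.49.

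Hsf1, the factor that drives the heat shock genes, averaged 53.2 ± 4.51 CPM in knockouts and 50.7 ± 4.62 CPM in controls, a log2 fold change of 0.07 (SE 0.10). Its binding partner Hsbp1 stood at 0.09 (SE 0.12). The other Hsp40 genes included Dnajc5, the cysteine string protein of vesicles, at -0.20 (SE 0.13), and Dnajb2 at 0.14 (SE 0.10). Hspa2, an Hsp70 best known from testis, stood at -0.29 (SE 0.20) and Hspa12a at -0.22 (SE 0.15). Hspa2 was -0.16 without control 5 and -0.14 without controls 4 and 5, and Hspa12a was -0.13 without knockout 3. Among small heat shock proteins, Hspb3 was at 0.16 (SE 0.11) and Hspb6 at 0.10 (SE 0.17). Leaving out knockout 3 brought Hsf1, Hsbp1, Dnajb2 and Hspb6 to 0.01, 0.02, 0.04 and 0.00, and leaving out control 5 gave 0.11, 0.18, 0.17 and 0.23.

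Co-chaperones of Hsp70 named by smallest p were Bag4 at -0.20 (SE 0.13) and Stub1, a ubiquitin ligase, at 0.18 (SE 0.12). Among Hsp90 co-chaperones, Fkbp5, an immunophilin induced by glucocorticoids, stood at -0.68 (SE 0.36). It was at 62.3, 32.6, 50.4 and 57.0 CPM in knockouts, against 39.0, 48.4, 127.8, 64.3 and 124.4 CPM in controls, so controls 3 and 5 stood above all others. Its log2 fold change was -0.45 without control 3 and -0.46 without control 5. Ppid, a cyclophilin, stood at 0.13 (SE 0.10) with all libraries. The mitochondrial chaperone genes Dnaja3 and Grpel1 were at -0.06 (SE 0.08) and 0.07 (SE 0.11), and the cytosolic chaperonin subunits Cct7 and Cct4 at 0.12 (SE 0.11) and 0.08 (SE 0.09). Without knockout 3, Bag4, Grpel1, Cct7 and Cct4 were at -0.10, -0.02, 0.05 and 0.04, so that Grpel1 turned sign. Grpel1 was 0.14 without control 5, and Dnaja3 was -0.02 without knockout 2. Of other Hsf1 targets, Ier5 was at -0.49 (SE 0.30), -0.30 without control 4, -0.10 without controls 4 and 5 and -0.82 without knockout 4. Dedd2 was at -0.18 (SE 0.13), and -0.07 without control 5.

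**Figure D5:**
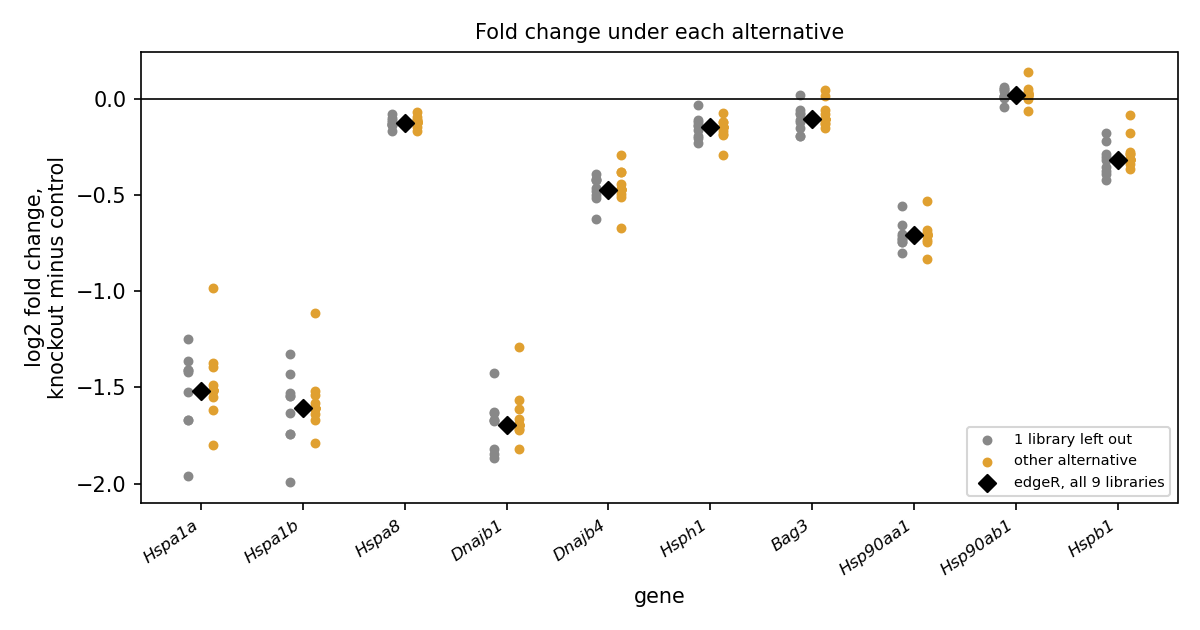
Log2 fold change of each of the 10 genes, knockout minus control, with all 9 libraries in edgeR (black), with 1 library left out (grey) and under the other alternatives (orange). Dnajb1 stays between -1.87 and -1.29, and Bag3 and Hsp90ab1 lie on both sides of 0.

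Some other measures also differed between libraries. The mean log2(CPM + 1) of 8 immediate early genes was 6.53, 6.32, 5.79 and 6.85 in knockouts and 7.37, 7.11, 6.83, 7.47 and 7.30 in controls. Among them Fos, an AP-1 subunit, averaged 332.6 ± 146.1 CPM in knockouts and 531.7 ± 143.1 CPM in controls, and its relative Fosb averaged 51.3 ± 18.5 CPM in knockouts and 126.9 ± 31.7 CPM in controls. The groups overlapped in Fos but not in Fosb, where 0.371% of all tested genes lay wholly lower in knockouts. Fosb and Atf3, also of the 8, were among the 7 genes DESeq2 called lower, 0.0531% of those tested. Junb, another of the 8, averaged 270.6 ± 66.5 CPM in knockouts and 274.9 ± 79.3 CPM in controls. The summed level of all 8 of 8 adipocyte markers was 396.5, 277.1, 492.5 and 386.1 CPM in knockouts, against 273.6, 336.7, 478.7, 939.4 and 857.4 CPM in controls. This sum was highest in controls 4 and 5. These were also the highest controls for Hspb1 and for Hspa1a and Hspa1b, which share reads, but for none of the other genes of the 10. Dnajb1 and Hsp90aa1 were highest in controls 4 and 1, and Dnajb4 in controls 4 and 3. Erythroid markers, of which 4 of 8 had counts and Hba-a1, Hba-a2, Hbb-b1 and Hbb-b2 were at 0, summed to 68.7, 68.1, 367.7 and 139.1 CPM in knockouts and 54.0 to 77.3 CPM in controls. Knockouts 1 and 2 lay within the control range, and knockouts 3 and 4 lay above it. All 5 keratinocyte markers had counts, and their sum was 37.4, 101.0, 4.60 and 6.41 CPM in knockouts, against 3.67, 169.7, 4.97, 4.85 and 5.08 CPM in controls. It was high in control 2, which had the most genes of the 10 below the control median among controls, and in knockouts 1 and 2. Without control 2 and knockouts 1 and 2, a choice made after seeing the data, the log2 fold changes of Dnajb1, Hspa1a, Hspa1b and Hsp90aa1 were -1.72, -1.37, -1.54 and -0.83. The part of the immediate early and marker measures in the chaperone values was not tested.

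The genes whose pattern over the 9 libraries was most like the mean standardised log2(CPM + 1) of the 10 genes, among 9381 with a mean of at least 5 CPM, were Csrnp1 (r = 0.90), Rfx2 (0.90), Hbegf (0.89), Prmt10 (0.87) and Klf13 (0.87). Their log2 fold changes were -0.56 (SE 0.16) for Csrnp1, a nuclear factor, -0.41 (SE 0.19) for Rfx2, -0.67 (SE 0.22) for Hbegf, a growth factor that binds the EGF receptor, -0.15 (SE 0.10) for Prmt10 and -0.18 (SE 0.10) for Klf13. The profile they were matched to contains the group difference, so values below 0 follow in part from how they were chosen. That profile also counts both near-identical Hspa1 copies.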

How the data were processed

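The authors deposited 1 table of unnormalized read counts, in whole numbers, for 23284 gene symbols and 9 libraries. The labels' protocols give NuGEN Ovation amplification of RNA whose integrity number was 6.7 or more. Named in the submitters' processing notes are bcl2fastq 1.8.4, Bowtie 0.12.7, TopHat, HTSeq 0.6.1 and mm9. No source used here gives the annotation, the strand setting or the handling of reads with several matches, so near-identical copies can lose or swap counts. GENCODE M21 (GRCm38) served only for transcript lengths and shared 50-base words, and RefSeq (GRCm38.p6) for promoter sequence. A count of 0 allows 3 counts. Such limits and counting errors cover counting alone, because amplification can make reads repeat a molecule.

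The main fit used edgeR 4.0.16 in R 4.3.3. filterByExpr with a minimum count of 10 left 13198 genes, TMM scaled the libraries, and a robust quasi-likelihood fit gave knockout over control. CPM values use the TMM-scaled library sizes. Adjusted p-values are Benjamini-Hochberg over all tested genes, called at 0.05, and SE is the log2 fold change over the square root of its F statistic. The spread behind each p is that between these libraries, which may be technical. No library repeats another of its group, since chi-square per degree of freedom over genes was 16.7 to 92.2. Alternatives were other scalings, filters and tools (DESeq2 1.42.0, limma 3.58.1), left-out libraries and a block on the label number.

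The 10 genes and all lists were chosen with earlier results of these data known. Of the network lists, the 2 genes of smallest unadjusted p per list and Hsf1 were named, with Fos and Fosb as immediate early genes. Atf3 and Junb were added to these after seeing the data. Genes most like the 10 were the 5 of highest r. Marker sums of 4 of the 8 cell type lists stand beside the results. Endothelial, fibroblast, macrophage and Schwann markers summed to 277.1 to 299.1, 1272 to 2495, 102.3 to 134.6 and 256.6 to 434.5 CPM in knockouts, and to 264.1 to 285.6, 1378 to 1951, 93.0 to 133.2 and 167.3 to 461.6 CPM in controls.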

Additional observations from a re-analysis of the deposited data

Results flagged for a closer look

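Knockout 4 stood apart from the other 3 knockouts in the inducible Hsp70 genes. Hspa1a was at 91.0 CPM in knockout 4, against 33.3 to 39.2 CPM in the others, and the gap to the next knockout was 0.899 of the group's whole range, above Dixon's critical value of 0.829 for 4 samples. The sum of Hspa1a and Hspa1b was at 166.4 CPM in knockout 4, against 59.9 to 77.0 CPM in the others, with a gap of 0.84 of the range. Both flags rest on the same reads in part. The rule was applied to 22 groups of values, and chance flags about 1 in 20.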

How the results depend on the processing

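The count of genes called was 0 in edgeR with all libraries, 0 in every fit with 1 library left out, and 0 under the other scalings and filters, non-robust fitting, limma-voom, a threshold of 0.1, removal of the most abundant genes and removal of each set of libraries that stood apart. Without control 2 and knockouts 1 and 2, also chosen after seeing the data, 1298 genes and 2 of the 65 network genes passed an unadjusted p under 0.05. DESeq2 called 7 genes, and 6 without a filter on low counts, a setting chosen after seeing the data. With a replicate block on the label number 1 gene, Fosb, was called lower. At an unadjusted p under 0.05, 1446 of 13198 genes and 2 of the 65 network genes passed with the block. Without it 419 genes and 0 network genes passed. The labels do not say whether the numbers pair the libraries. Same-numbered knockouts and controls correlated by 0.50, -0.01, 0.12 and -0.09, and 1 of 4 knockouts was most like its own number. So few values cannot settle whether the libraries were paired. The descriptions also carry a second number, after the letters GP, which entered no fit. This number was higher in controls 3, 4 and 5 than in any knockout, so it is in part confounded with genotype. Those controls also had the highest Hspb1 and summed Hspa1a and Hspa1b. For Dnajb1, control 1, at 124.4 CPM, stood above controls 3 and 5. The labels do not say what the second number means, and its part in the values was not tested. No network gene was called under any setting.

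The median log2 fold change of the 10 chaperone genes ranged from -0.50 to -0.30 with 1 library left out and was -0.21 without controls 4 and 5. The median of all tested genes stayed between -0.02 and 0.03 under these settings. Dnajb1 ranged from -1.87 to -1.29, Hspa1a from -1.96 to -0.98, Hspa1b from -1.99 to -1.11, Hsp90aa1 from -0.83 to -0.53 and Dnajb4 from -0.67 to -0.29. Bag3 and Hsp90ab1 each changed sign in 3 of 23 settings. The cause was not tested. Counting error at each gene's lowest count was 0.584% to 4.99%, a minimum after amplification. For Hspa8 it was 2.03%, in knockout 4, beside a coefficient of variation of 4.17% among controls. For Hsp90ab1 it was 0.584%, also in knockout 4, beside 5.10%. The weight of counting in the spread thus differed between these steady genes.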

Other observations

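After each group's mean was subtracted, the genes most like the 10 chaperone genes over the 9 libraries were Scp2 (r = 0.94), a sterol carrier protein, the transporter Abcg2 (0.93), 5730469M10Rik (0.93), 8430410K20Rik (0.93) and Ywhab (0.93), a 14-3-3 protein. None of them is among the 5 genes most like the 10 when the group difference is kept. Scp2 averaged 81.2 ± 6.46 CPM in knockouts and 78.4 ± 11.8 CPM in controls, a log2 fold change of 0.05 (SE 0.12). These are the highest of 9381 values of r over few libraries, given as a description.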
